A study of Mus musculus with 384 samples.

Results

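Luminal cells of the mouse mammary gland sorted after luminal ablation were chosen by how much Krt14, a basal keratin, each of them held, and the 27 cells with the most Krt14 were set against the 32 cells with the least. The 59 cells come from 91 wells of the ablated luminal gate. Of these wells, 76 were kept, having at least 100000 gene reads and 1000 genes and at most 20% mitochondrial reads. A cell was called Krt14-high at 1000 counts-per-million of gene reads (CPM) or more and Krt14-low under 100 CPM, and the 17 cells between these limits, called Krt14-intermediate here, were left out of the comparison and are given for reference. Krt14 itself chose the cells, so its difference between the classes is a description and not a result. Both limits cut a range and do not define cell types.

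The plate held 384 wells of Smart-seq2 full-length cDNA libraries, of which 374 were single cells and 319 of those were kept. All groups, the one labelled wild-type included, carry the same alleles in a mixed background, K8rtta/TetO-DTA/K5CreER/Rosa-Tomato. In this model the Krt8 promoter drives the rtTA that switches on diphtheria toxin A under doxycycline, and Cre from the Krt5 promoter marks the Krt5 lineage with Tomato. For ablation, 0.2 mg of doxycycline was injected into the ducts 1 week before the cells were taken, and the labels record no such injection for the wild-type cells. The sort kept Tomato+ cells negative for CD45, CD31 and CD140a and used CD29 and EpCAM, and gave wild-type basal (44 kept cells) and luminal (43) cells and ablated basal (71), hybrid (85) and luminal (76) cells. Tomato marks descent from Krt5 cells by the design of the alleles. The labels state neither how the hybrid gate was drawn nor how many animals were used. With no animal named, each gate is 1 sample and the Krt14 classes are parts of that 1 sample, so no test was possible and none is given. Differences are read by size, as 2-fold or more. Intervals of summed levels cover the counting error of reads only. Intervals of shares reflect the number of cells only, and neither kind covers differences between animals.

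The mammary duct has an inner luminal layer, which makes the keratins Krt8, Krt18 and Krt19, and an outer basal layer of contractile myoepithelial cells, which makes Krt5, Krt14 and Krt17 and smooth muscle proteins such as Acta2. Luminal cells divide further into hormone-sensing cells, which carry the estrogen, progesterone and prolactin receptors, and secretory progenitors marked by Kit and Elf5. Krt5 and Krt14 proteins pair into one filament, and Trp63, the p63 transcription factor, is the known regulator of the basal keratin program. Krt6a, Krt17, Il24 and Ptgs2 are known from wounded or inflamed epithelium.

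Krt14 lies on the minus strand of chr11:100203162-100207548 (GRCm38, as are all coordinates here). Its level over the Krt14-high cells together was 9874 CPM, with 1367 CPM in the lowest cell, a median of 4698 CPM and 37055 CPM in the highest. Over the Krt14-low cells together it was 22.7 CPM, with a lowest cell of 4.45 CPM, a median of 22.3 CPM and a highest cell of 80.5 CPM. The cells nearest to the lower limit held 80.5 and 150 CPM and those nearest to the upper limit 835 and 1367 CPM. Within 2-fold of a limit lay 8 cells at 100 CPM and 13 cells at 1000 CPM. A Krt14-low cell held 25.1 Krt14 reads on average, while the 5 negative control wells held 12 to 22 Krt14 reads each among 7930 to 13572 gene reads, so the low level is close to what wells without a cell show.

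No wild-type luminal cell was Krt14-high, 1 of 43 was intermediate and 42 were Krt14-low. Of the 71 ablated basal cells 59 were Krt14-high, and of the 85 hybrid cells 63. Ablated basal cells held 7189 CPM of Krt14 together and wild-type basal cells 7154 CPM, both under the 9874 CPM of the Krt14-high luminal cells. The many-cell library of the ablated luminal gate held 165 CPM of Krt14 and 4.56 CPM of Krt5. The reads of the 76 kept single cells of this gate pooled together gave far more, with 3920 CPM of Krt14 and 288 CPM of Krt5. Trp63 and Il24 were at 0 in the many-cell library, against 49.1 and 132 CPM in the pooled single cells. The many-cell library thus did not match the single cells in these genes, and it has no replicate. In such a library fewer Krt14-high cells and less Krt14 per cell cannot be told apart.

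**Figure D1:**
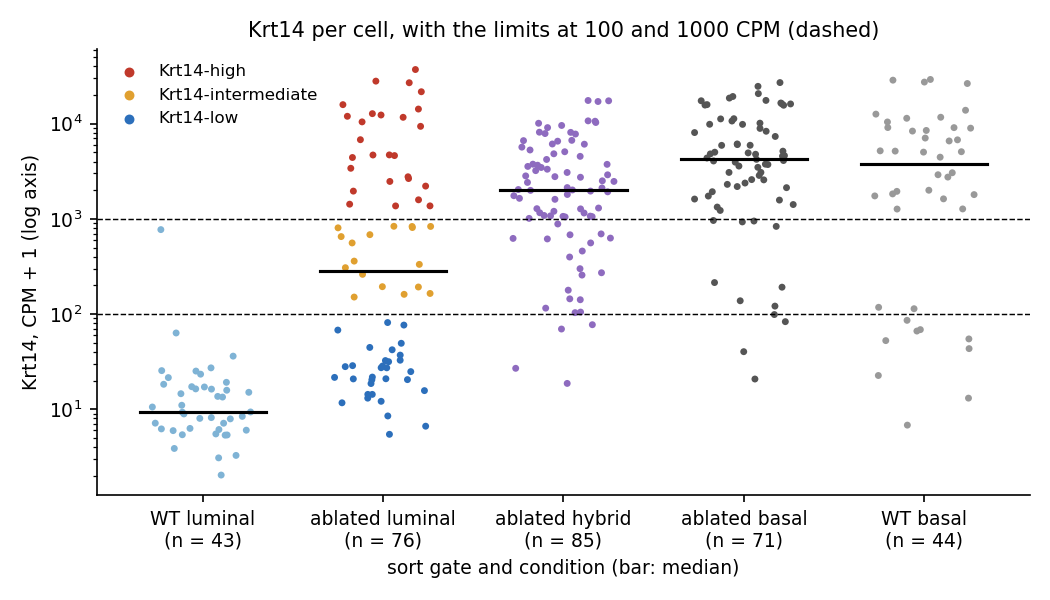
Krt14 per cell in CPM with 1 added (log axis) for the 5 gates, 1 point per kept cell, bars at the median and dashed lines at the limits of 100 and 1000 CPM. Ablated luminal cells spread from 4.45 to 37055 CPM across both limits, while 42 of 43 wild-type luminal (WT luminal) cells lie under 100 CPM.

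The classes were alike in depth. Krt14-high cells held a median of 1220000 gene reads and Krt14-low cells 1057750, summing to 33583049 and 35342197 reads. At 100000 reads each, the median number of genes was 4348 and 4395, with ranges of 2659 to 7212 and 2726 to 5685, against a median of 2715 in ablated basal cells. Mitochondrial reads made up a median of 2.54% and 2.30%. The classes were spread unevenly over the plate, with 16 Krt14-high and 9 Krt14-low cells on lines I and J and 11 and 23 on lines K to M. The comparison of the classes was repeated within these lines. Each part holds other cells as well as other positions, so an effect of position was not tested.

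Promoter sequence is shown for 3 genes that separate the basal features present in Krt14-high cells from one that was mostly missing. Krt5 and Col17a1 were high in most of these cells, while Acta2 was high in few. Each window is the 250 bases before the RefSeq start of the gene (GRCm38.p6), at chr15:101712906-101713155, chr19:47692043-47692292 and chr19:34255374-34255623, all on the minus strand and written 5′ to 3′. By the gene coordinates given below, most of the Acta2 window and part of the Col17a1 window lie inside the gene. Both strands were searched for 4 motifs, with no mismatch allowed. Capitals mark the match to the p53-family motif in Krt5, the site type that p63 can bind, and the matches to TATAAA in Col17a1.
Krt5: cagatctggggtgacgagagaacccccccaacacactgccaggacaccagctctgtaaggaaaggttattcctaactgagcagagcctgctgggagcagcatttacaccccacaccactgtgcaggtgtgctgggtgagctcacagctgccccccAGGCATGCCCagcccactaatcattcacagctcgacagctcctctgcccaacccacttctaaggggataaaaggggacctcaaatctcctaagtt
Col17a1: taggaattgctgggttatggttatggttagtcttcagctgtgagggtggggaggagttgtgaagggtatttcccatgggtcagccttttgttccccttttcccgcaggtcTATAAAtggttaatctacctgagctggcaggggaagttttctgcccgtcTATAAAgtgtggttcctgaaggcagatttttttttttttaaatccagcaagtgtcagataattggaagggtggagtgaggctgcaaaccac
Acta2: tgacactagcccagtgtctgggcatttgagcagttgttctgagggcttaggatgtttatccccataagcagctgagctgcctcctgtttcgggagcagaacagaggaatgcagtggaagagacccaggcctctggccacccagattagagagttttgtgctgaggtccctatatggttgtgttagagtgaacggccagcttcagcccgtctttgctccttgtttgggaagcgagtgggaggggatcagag
The Acta2 window holds no exact match to any of the 4. The CArG box is the site type of serum response factor in smooth muscle genes. The Acta2 window holds 2 stretches that miss it by 1 base, ccctatatgg and ccttgtttgg. The Col17a1 window also holds 1 such stretch, ctataaatgg, and the Krt5 window holds none. At least 1 such stretch is found in 17.5% of all windows. Of 32851 promoter windows of this length, 1.63% hold the p53-family motif, 12.4% TATAAA, 1.47% an exact CArG box and 6.75% the AP-1 motif TGANTCA, which none of the 3 windows holds. The motifs can overlap each other, and a match describes letters, not binding.

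Over all 10679 genes that reached 5 CPM in the classes together, 1148 genes (10.8%) were 2-fold or more higher in Krt14-high cells and 1423 genes (13.3%) were 2-fold or more lower. Ratios were taken on summed reads after adding 10 CPM to each class, which keeps low genes from giving large ratios. The median log2 ratio of all genes was −0.06, so there was no general shift between the classes. These counts were 686 and 515 when the median over cells replaced the sum, of which 170 and 142 were shared. Many of the named genes below were found in only a part of the cells of a class. A gene high in 1 class alone can reach the 5 CPM limit through that class, so the counts of list members below describe the genes that reached it and support nothing about those that did not.

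Among the basal keratins, 3 of 5 measured genes were 2-fold or more higher in Krt14-high cells and 1 was lower, with a median log2 ratio of 2.07. That median was 1.04 with all 6 list members and no limit on level, and 5.05 when the median over cells replaced the sum. Krt5 (chr15:101707070-101712898), which pairs with Krt14, ran from 0.82 CPM in the lowest Krt14-high cell through a median of 507 to 3276 CPM, and from 0 through 2.19 to 11.9 CPM in Krt14-low cells. It reached 100 CPM in 17 of 27 Krt14-high cells and in 0 of 32 Krt14-low cells, so the classes overlap only in the Krt14-high cells without Krt5. Summed, Krt5 was 732 CPM (95% Poisson interval 723 to 741) against 2.52 CPM (2.02 to 3.10), a log2 ratio of 5.89, the highest of all genes the naming rule admits. The ratio was 5.83 within plate lines I and J and 5.79 within K to M.

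Detection was compared after thinning each cell to 100000 reads, with 5 reads as the limit. Krt5 was detected in 62.96% of Krt14-high cells (exact interval 42.4 to 80.6%), in 71.8% of ablated basal and 71.8% of hybrid cells, and in 0 of 17 intermediate and 0 of 32 Krt14-low cells. In the latter the exact interval reaches 10.9%. Wild-type luminal cells gave 0 of 43 by the same measure. Without thinning the shares were 66.7% in Krt14-high and 15.6% in Krt14-low cells.

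Krt17, a keratin of basal and injured epithelium, ran from 4.56 through 872 to 23298 CPM in Krt14-high and from 1.603 through 16.7 to 8190 CPM in Krt14-low cells. It passed 100 CPM in 24 of 27 and 8 of 32 cells and was 3576 against 688 CPM summed, a log2 ratio of 2.36. The Krt14-low value rests on few cells, since only 3 of them passed 1000 CPM. Wild-type luminal cells held 88.1 CPM together, under both ablated classes.

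Krt6a, a wound-type keratin, was 452 against 99.9 CPM, a log2 ratio of 2.07, and passed 100 CPM in 10 Krt14-high and 6 Krt14-low cells. In ablated basal cells no cell of 71 passed 100 CPM, and in hybrid cells 1 of 85. All 10 Krt14-high cells with Krt6a also passed 100 CPM of Krt17. Krt15 went the other way, with 78.1 CPM in Krt14-high and 284 CPM in Krt14-low cells, a log2 ratio of −1.74. That direction did not hold across the plate, since the ratio was −3.49 on lines I and J and 0.38 on lines K to M, and 1.42 without the cells of high gene number defined further on.

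**Figure D2:**
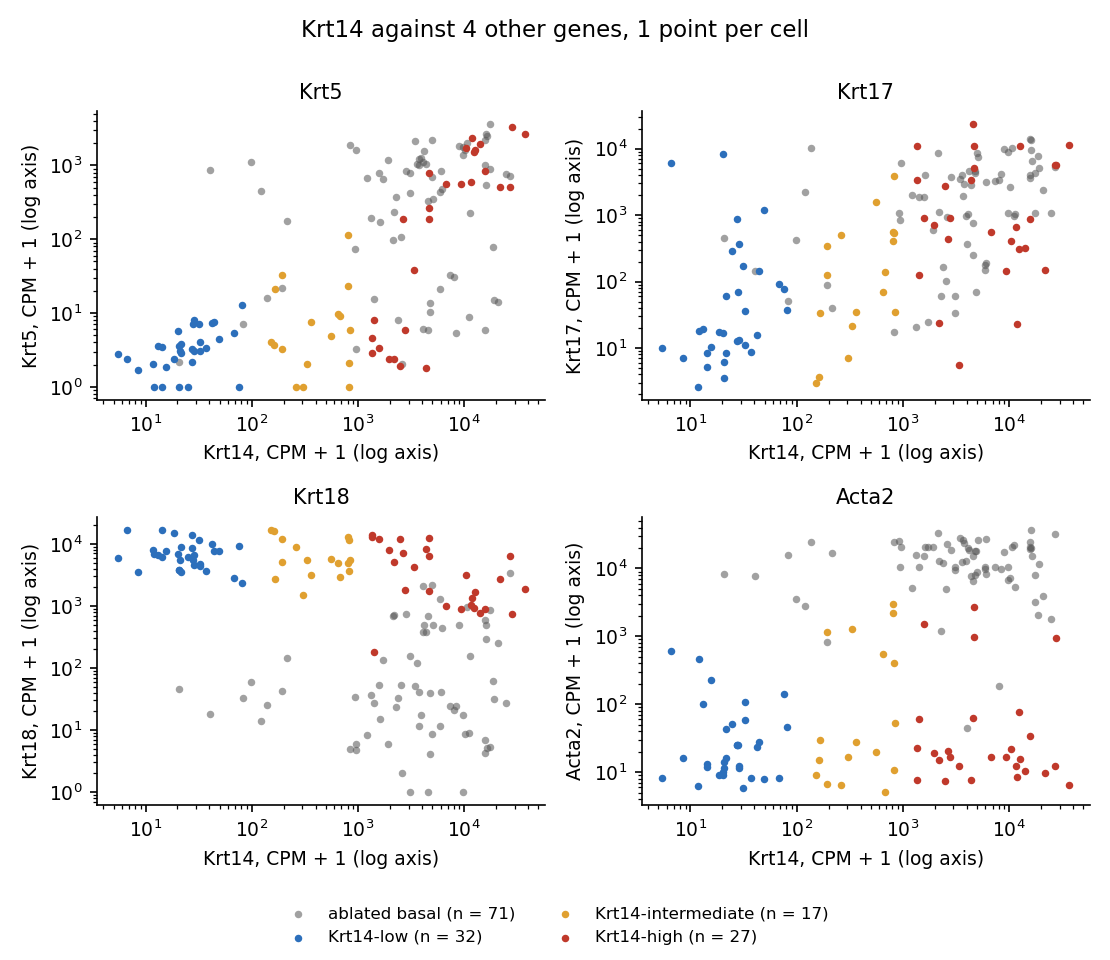
Krt14 against Krt5, Krt17, Krt18 and Acta2 per cell, in CPM with 1 added (log axes), for the 3 classes of ablated luminal cells and the ablated basal cells. Krt5 climbs with Krt14 among Krt14-high cells, Krt18 stays at 181 CPM or more in all of them, and Acta2 is under 100 CPM in 23 of 27.

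Within the Krt14-high class Krt5 followed Krt14 closely. Each of the 16 cells with the most Krt14 held between 189 and 3276 CPM of Krt5, and of the 11 below them only the cell ranked 20 passed 100 CPM, with 189 CPM. The Spearman correlation of Krt5 with Krt14 over these 27 cells was 0.83, and that of Trp63 was 0.59, of Col17a1 0.53 and of Il24 0.48. The simple keratins ran the opposite way, at −0.62 for Krt8, −0.58 for Krt18 and −0.58 for Krt19. Krt17 was near 0.09 and Acta2 near −0.15, while the number of reads gave 0.18 and the number of genes 0.30. All these values describe 27 cells that share a gate and a plate, and Krt14 chose the cells.

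Trp63 (chr16:25683763-25892102), the p63 gene, was present in part of the class. It ran from 0 through 1.42 to 1125 CPM in Krt14-high cells and did not exceed 5.96 CPM in any Krt14-low cell. Summed it was 112 CPM against 0.396 CPM, a log2 ratio of 3.56, and it was detected in 37.04% of Krt14-high cells (19.4 to 57.6%) and 46.5% of ablated basal cells. Without thinning it was found in 48.1% of Krt14-high and 0% of Krt14-low cells. All 7 cells with at least 100 CPM of Trp63 also had at least 100 CPM of Krt5.

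The wider list of basal and progenitor transcription factors had 4 of 12 measured genes 2-fold or more higher and 2 lower, with a median log2 ratio of 0.24. Id4, an inhibitor of helix-loop-helix factors found in basal cells, was 71.05 against 7.27 CPM (2.23), and Snai2, a repressor of epithelial genes, was 16.9 against 0.0283 CPM (1.42). Sox9 did not differ by 2-fold, with 380 against 323 CPM (0.23). Sox10 was lower in Krt14-high cells, 24.3 against 64.1 CPM (−1.11). Ablated basal cells held 141 CPM of Snai2 and 460 CPM of Id4, above the class in both.

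Adhesion to the basement membrane was described with 19 measured genes, of which 7 were 2-fold or more higher, 1 was lower and the median log2 ratio was 0.72. Col17a1 (chr19:47646344-47692094), the transmembrane collagen of hemidesmosomes, ran from 0 through 111 to 1764 CPM in Krt14-high and from 0 through 0.976 to 315 CPM in Krt14-low cells. It passed 100 CPM in 14 and 2 cells, and its summed level of 354 CPM was close to the 379 CPM of ablated basal cells, against 14.4 CPM in Krt14-low cells (3.90). Cdh3, P-cadherin of the basal layer, was 105 against 0.622 CPM (3.43) and passed 100 CPM in 8 and 0 cells. Lama3, a laminin-332 chain, was 65.1 against 5.15 CPM (2.31), and Cav1, the caveolae scaffold, 332 against 63.9 CPM (2.21). The integrins used in basal sorting did not follow, with 314 against 309 CPM of Itga6 (0.02) and 208 against 310 CPM of Itgb1, which encodes CD29 (−0.55).

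Secreted and matrix genes of basal cells had 12 of 18 measured members 2-fold or more higher and none lower, with a median log2 ratio of 1.64. Fst, which encodes the activin antagonist follistatin, was 211 against 1.132 CPM (4.31) and passed 100 CPM in 9 and 0 cells. Cxcl14, an epithelial chemokine, was 153 against 1.27 CPM (3.85). Sparc, a matrix protein that binds collagen, was 703 against 43.4 CPM (3.74) and passed 100 CPM in 17 and 4 cells. Igfbp3, a binding protein for insulin-like growth factors, was 131 against 1.39 CPM (3.63), and Apoe, a lipid carrier, 1204 against 128 CPM (3.13). Ablated basal cells held far more of several of these, with 6605 CPM of Sparc, 943 CPM of Fst and 1072 CPM of Cxcl14.

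Of the 16 genes of the mesenchymal list 8 reached the level limit, and 7 of these were 2-fold or more higher and none lower, with a median of 2.32. With no limit on level the median was 1.44, and Fn1 and Tgfbi reached the limit only through the Krt14-high class. Vim, an intermediate filament protein, ran from 0 through 302 to 2305 CPM in Krt14-high and from 0 through 2.28 to 614 CPM in Krt14-low cells, passing 100 CPM in 17 and 4 cells. Its sum of 593 CPM was above both the 29.5 CPM of Krt14-low cells (3.93) and the 291 CPM of ablated basal cells (1.00). Fn1 and Tgfbi, fibronectin and a matrix adhesion protein, gave 78.3 and 91.4 CPM against 0.0566 and 0.198 CPM, but 72.8% of the Fn1 reads and 49.95% of the Tgfbi reads came from 1 cell each. Col1a1 and Col3a1, which define fibroblasts, were at 0 in the Krt14-high cells. Several list members are also made by basal cells, with 782 CPM of Mmp2 there against 68.4 CPM in Krt14-high cells.

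The contractile genes of myoepithelial cells separated Krt14-high cells from basal cells. Acta2 (chr19:34241090-34255590), smooth muscle actin, ran from 5.38 through 15.6 to 2678 CPM in Krt14-high and from 4.80 through 15.0 to 599 CPM in Krt14-low cells. It passed 100 CPM in 4 of 27 and in 6 of 32 cells, so the 2 classes overlapped almost fully and their medians were alike. The summed levels of 264 CPM (259 to 270) and 69.9 CPM (67.2 to 72.7) gave a log2 ratio of 1.78, but 51.2% of the Krt14-high reads came from 1 cell. The ratio was 4.07 on plate lines I and J and −0.0020 on lines K to M, so the pooled value comes from the former.

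Thinned to 100000 reads, Acta2 was detected in 29.6% of Krt14-high (exact interval 13.8 to 50.2%), 25% of Krt14-low (11.5 to 43.4%) and 20.9% of wild-type luminal cells (10.04 to 36.04%), and without thinning in 100% of both ablated classes, while negative control wells held 27.2 Acta2 reads on average. The intervals of these shares overlap. They take the cells of a gate as independent, so they are no test of a difference.

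In ablated basal cells Acta2 was 16591 CPM and passed 100 CPM in 70 of 71 cells, and in hybrid cells it did so in 82 of 85. Cnn1, calponin, was 62.7 CPM in Krt14-high cells with 81.5% of reads from 1 cell, against 7.33 CPM in Krt14-low and 2218 CPM in ablated basal cells. Mylk, the myosin light chain kinase, was 33.4 against 1.64 and 1323 CPM, and Myh11, smooth muscle myosin, was 2.05 against 7.41 and 721 CPM. In all, 8 of 10 measured contractile genes were 2-fold or more higher in Krt14-high than in Krt14-low cells, with a median of 1.59, among them Cald1, which encodes the actin-binding caldesmon (430 against 89.5 CPM, 2.14).

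Per cell, the summed contractile list ran from 389 through 1593 to 5593 CPM in Krt14-high cells and from 204 through 896 to 2989 CPM in Krt14-low cells. In ablated basal cells it ran from 1592 through 25857 to 60546 CPM, so the Krt14-high median lay at the lowest basal cell. Of the 17 Krt14-high cells with 100 CPM of Krt5, only 3 also had 100 CPM of Acta2.

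**Figure D3:**
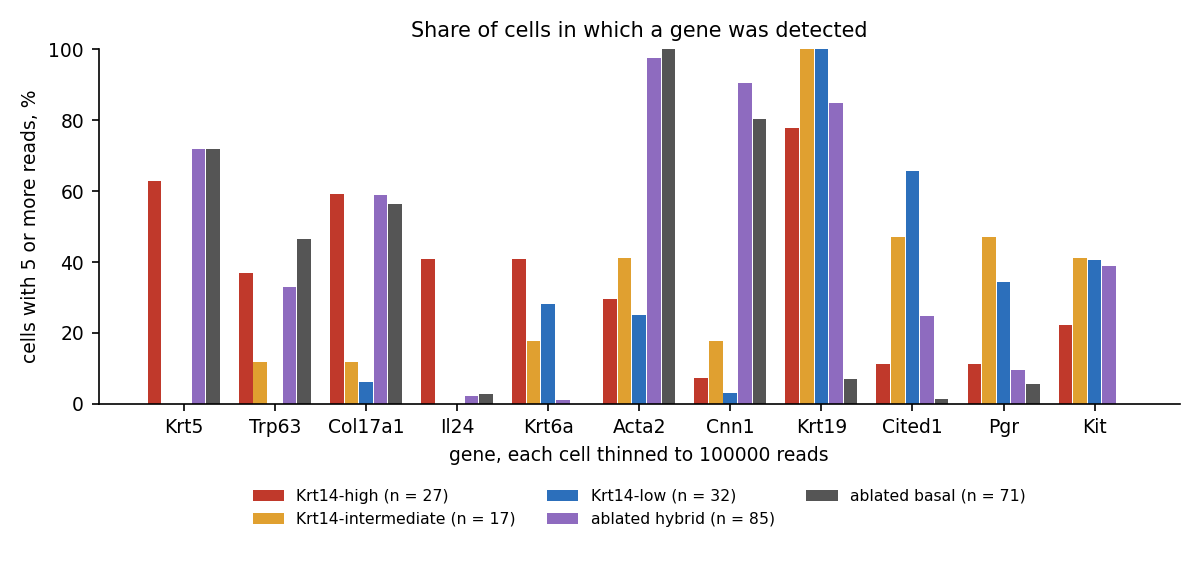
Share of cells in percent in which each of 11 genes had 5 or more reads, with every cell thinned to 100000 reads, for the 3 classes of ablated luminal cells, hybrid and ablated basal cells. Krt5, Trp63 and Col17a1 were found at like shares in Krt14-high and basal cells, Acta2 at 29.6% against 100%, and Il24 at 40.7% in Krt14-high cells only of the luminal classes shown.

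Luminal keratins were present throughout the Krt14-high class, at lower summed levels. Krt18 (chr15:102028180-102032027) ran from 181 through 2681 to 13755 CPM in Krt14-high and from 2360 through 6664 to 16937 CPM in Krt14-low cells, and passed 100 CPM in every cell of both. The sums were 4719 and 7949 CPM, a log2 ratio of −0.75, while ablated basal cells held 302 CPM. Krt8 was 3094 against 5072 CPM (−0.71). Krt19 was 2205 against 6783 CPM (−1.62), with 21 of 27 and 32 of 32 cells at 100 CPM or more, and 12.2 CPM in ablated basal cells. Without cells of high gene number the ratios were −0.010 for Krt19, 0.11 for Krt8 and −0.36 for Krt18 and a list median of 0.05 in place of −0.73. Epcam, the sort antigen, was 2566 against 3165 CPM (−0.30) and passed 100 CPM in all 59 cells.

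Basal and simple keratins were found in the same wells. All 17 Krt14-high cells with 100 CPM of Krt5 also passed that level for Krt18 and Epcam, and 11 of them for Krt19. The cell with the most Krt14 held 2666 CPM of Krt5 and 1879 CPM of Krt18 but 26.9 CPM of Krt19. The cell ranked 16 held 267 CPM of Krt5, 23298 CPM of Krt17 and 12631 CPM of Krt18. Whether a well held more than 1 cell was not tested, and no doublet caller was used. Gene number, the measure given beside it, was alike in both classes, and both medians stood above the 2882 genes of wild-type luminal cells. Under a limit of 3784 genes at 100000 reads, the 90th percentile of kept wild-type cells, 10 Krt14-high and 10 Krt14-low cells remained, and values given without cells of high gene number refer to these.

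Junction and apical membrane genes had none of 21 measured members 2-fold or more higher and 6 lower, with a median of −0.44. Muc1, the apical mucin, was 33.1 against 183 CPM (−2.16), Cldn8, a claudin, 9.56 against 73.2 CPM (−2.09), and Cgn, cingulin of tight junctions, 10.2 against 65.6 CPM (−1.90). The Cldn8 ratio was 1.00 on plate lines I and J. The abundant claudins differed less, with 2075 against 2510 CPM of Cldn4 (−0.27) and 666 against 906 CPM of Cldn7 (−0.44).

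Hormone-sensing genes were lower in 7 of 14 measured members and higher in 3, with a median of −0.92. Cited1 (chrX:102247381-102252181), a co-activator found in hormone-sensing luminal cells, ran from 0 through 1.89 to 460 CPM in Krt14-high and from 0 through 350 to 3845 CPM in Krt14-low cells. It passed 100 CPM in 3 of 27 against 21 of 32 cells and was 31.5 CPM (29.6 to 33.4) against 869 CPM (859 to 879), a log2 ratio of −4.41. The ratio was −3.61 on lines I and J and −6.26 on lines K to M. Pgr, the progesterone receptor, was 16.7 against 144 CPM (−2.52) and passed 100 CPM in 1 and 9 cells. Foxa1, a pioneer factor for the estrogen receptor, was 56.99 against 172 CPM (−1.44), Esr1, that receptor, 55.9 against 151 CPM (−1.29), and Prlr, the prolactin receptor, 300.2 against 675 CPM (−1.14). Foxa1 was 0.34 without the cells of high gene number.

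Of the 3 members that went up, Calca and Tph1 rest on few cells. Calca, the calcitonin gene, was 172 against 0.622 CPM and passed 100 CPM in 3 and 0 cells. Tph1, the enzyme that starts serotonin synthesis, was 333 against 25.4 CPM with 2 cells at 100 CPM in each class, and the top cell held 55.4% of its Krt14-high reads. On plate lines K to M the log2 ratio was −0.012 for Calca and −0.96 for Tph1. The third was Cxcl15, a chemokine, with 129 against 19.8 CPM (2.22).

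The list of luminal progenitor and alveolar fate genes had 5 of 15 measured members 2-fold or more lower and 1 higher, with a median of −0.56. Kit, the progenitor receptor, was 72.15 against 259 CPM (−1.71) and passed 100 CPM in 6 and 13 cells. Elf5, the alveolar regulator, was low in both classes, 12 against 36.6 CPM (−1.08), with 2 cells at 100 CPM in each. The Elf5 ratio was 0.62 on lines I and J and 0.67 without the cells of high gene number, and the list median was 0.52 on lines I and J. Milk protein and lipid genes had 5 of 15 measured members higher and none lower (median 0.87), but that median was −0.14 on lines K to M, 0.21 without the cells of high gene number, 0.28 by the median over cells and 0.35 with no limit on level. Of this list, 99.5% of the 509 CPM of the beta-casein gene Csn2 came from 1 cell.

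The 15 genes with the largest ratios toward Krt14-high cells were Krt5, Il24, Ptgs2, Fst, Fabp5, Nrg1, Pla2g7, Vim, Col17a1, Pdpn, Cxcl14, Gpx2, Klk8, Sparc and Igfbp3, drawn by the rule from 449 genes that met its level and detection limits. Il24 (chr1:130882074-130887454), a cytokine of the IL-10 family made by injured epithelium, ran from 0 through 3.53 to 3442 CPM in Krt14-high cells and did not exceed 5.72 CPM in any Krt14-low cell. It passed 100 CPM in 10 of 27 and 0 of 32 cells and summed to 341 CPM (335 to 348) against 0.764 CPM (0.503 to 1.11), a log2 ratio of 5.03. Ablated basal cells held 8.82 CPM and hybrid cells 7.855 CPM, both far below, and Il24 was detected in 0 of 43 wild-type luminal cells. Without the Krt14-high cells under 1000 CPM of Krt18 the ratio was 3.87, and 2.44 without cells of high gene number.

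Ptgs2, the inducible cyclooxygenase, was 253 against 1.67 CPM (4.49) and passed 100 CPM in 6 and 0 cells, with 54.8% of reads from 1 cell. Nrg1, a ligand of the ErbB receptors, was 156 against 0.453 CPM (3.99) and passed 100 CPM in 9 and 0 cells, at a level near the 132 CPM of ablated basal cells. Pdpn, podoplanin of basal membranes, was 226 against 6.25 CPM (3.86), near the 271 CPM of ablated basal cells. Klk8, a kallikrein protease of skin, was 147 against 1.56 CPM (3.76) and passed 100 CPM in 7 and 0 cells, and was detected in 0 of 71 ablated basal cells. Pla2g7, a phospholipase of inflammatory lipids, was 282 against 8.80 CPM (3.96) and passed 100 CPM in 12 and 1 cells.

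Fabp5 and Gpx2, a fatty acid carrier and a glutathione peroxidase, were 383 against 14.7 CPM (3.996) and 414 against 20.7 CPM (3.79). They were concentrated in the cells ranked 2, 5 and 8 by Krt14, which held 5248, 1608 and 2212 CPM of Fabp5 and 5151, 1692 and 3730 CPM of Gpx2. The same cells held 526.2, 1341 and 512 CPM of Klk6 and 594, 1036 and 268 CPM of Krt6a. Fabp5 had a log2 ratio of 1.70 without the Krt14-high cells under 1000 CPM of Krt18 and was −0.92 without cells of high gene number. A separate cell, ranked 6, held the most Il24 with 3442 CPM, together with 3354 CPM of Il19, 5084 CPM of Mmp3 and 1660 CPM of Mmp13, which encode a related cytokine and matrix proteases. The cells ranked 10 and 12 joined Il24 (819 and 1811 CPM) with Ptgs2 (2800 and 967 CPM). These per-cell groupings were chosen after the values were seen.

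The 15 genes with the largest ratios toward Krt14-low cells were Il33, Cited1, Crabp1, Atp2a3, Itih2, Ak3, Mlph, Lipe, Nbea, Sigirr, Cadps2, Gpd1, Nrbp2, Pgr and Grb14, from 302 that met the rule, with log2 ratios from −4.72 to −2.47. Il33, a nuclear alarmin cytokine, was 9.11 against 495 CPM (−4.72). It passed 100 CPM in 1 Krt14-high and 11 Krt14-low cells, and the highest Krt14-low cell held 2992 CPM. Mlph, an adaptor in vesicle transport, gave −2.95, and Ak3, a mitochondrial kinase, −3.15. Crabp1 was 0.12 on plate lines I and J, and Atp2a3 and Grb14 were 0.87 and 0.46 without cells of high gene number. For Atp2a3, 64.6% of the Krt14-low reads came from 1 cell. Intermediate cells held 234 CPM of Cited1 and 185 CPM of Il33, between the other classes.

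**Figure D4:**
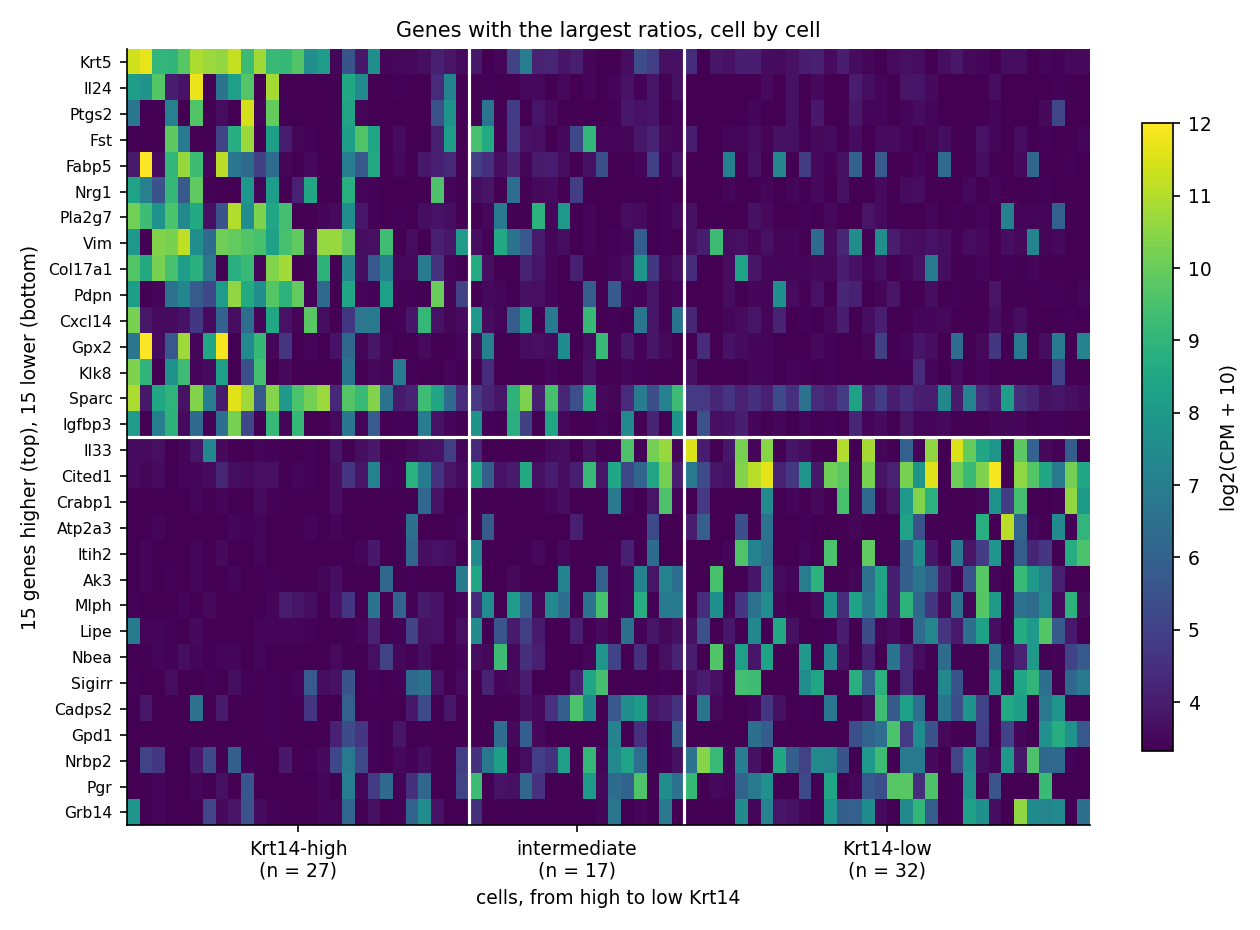
Level of the 15 genes with the largest ratios in each direction, as log2(CPM + 10) by colour, in each of the 76 ablated luminal cells ordered from high to low Krt14 (columns). Krt5 is filled across most Krt14-high cells, while Il24 is present in 10 of 27 and most other genes in a part of a class.

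The 17 intermediate cells did not form an even step. Their Krt5 had a median of 3.96 CPM, against 2.19 CPM in Krt14-low cells, and passed 100 CPM in 1 cell, and Krt19 ranged from 146 through 7075 to 15705 CPM. Acta2 passed 100 CPM in 6 of 17 of them and summed to 757 CPM, but 52.8% of these reads came from 1 cell with 3039 CPM, and the median was 26.6 CPM. Over all 76 cells, among 3956 genes found in enough of them, those ranked most like Krt14 by Spearman correlation were Pxdc1 (0.61), Krt17 (0.58), Ifi202b (0.58), Rnase4 (0.57), Cald1 (0.56), Perp (0.52), Moxd1 (0.51), Tiparp (0.51), Col17a1 (0.51) and Vim (0.50). At the other end stood Cited1 (−0.63), Krt19 (−0.49) and Mlph (−0.48). The cells share a plate and a gate, so the order is a description.

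Signalling genes were followed in 6 lists. Of 22 measured Wnt genes 6 were 2-fold or more higher and 3 lower (median 0.53), with the stem cell receptor Lgr5 at 112 against 25.7 CPM (1.78) and the feedback inhibitor Nkd2 at 133 against 10.98 CPM (2.76). Of 16 EGFR pathway genes 4 were higher and 2 lower (0.43). The ligand Epgn was 314 against 81.6 CPM (1.82) and the inhibitor Errfi1 300.4 against 953 CPM (−1.63). For Epgn, 58.4% of the Krt14-high and 88.5% of the Krt14-low reads came from 1 cell each. Of 11 Notch genes 4 were higher and 1 lower (0.14), with the ligand Jag1 at 129 against 35.4 CPM (1.61) and the target Hes1 at 34.9 against 124 CPM (−1.58). Jag1 was −0.35 on lines K to M.

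TNF and NF-kB response genes were higher in 2 of 15 and lower in 2 (−0.19), interferon genes in 1 and 2 of 9 (0.22), and p53 response genes in 2 and 2 of 15 (−0.29), with Btg2 at 164 against 764 CPM (−2.15). Immediate early genes, which cell dissociation is known to raise, were lower in 6 of 18 and higher in none (−0.47), with Fos at 1217 against 2725 CPM (−1.16), but their median was 0.12 without cells of high gene number. Cell cycle genes were higher in 7 of 21 and lower in none (0.46), but their median was −0.16 on lines I and J, −0.22 without the Krt14-high cells under 1000 CPM of Krt18 and −1.25 without cells of high gene number. It was −1.15 by the median over cells and 1.17 on lines K to M. The share of all genes 2-fold or more higher or lower, given above, is the background for each of these counts.

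Summed over the cells of a class, markers of other cell types were low in both classes. The 8 skin keratinocyte genes summed to 23.0 CPM in Krt14-high and 20.8 CPM in Krt14-low cells, with Krt1, Krt2, Lor, Ivl and Flg at 0 in the former. Immune genes summed to 15.2 and 90.7 CPM with Ptprc at 0 in both, endothelial genes to 23.3 and 58.03 CPM, fibroblast genes to 59.2 and 49.997 CPM and pericyte genes to 45.6 and 47.2 CPM. Adipocyte genes gave 0 and 0.0283 CPM. Single cells held more. The immune list reached 100 CPM in 3 Krt14-high and 6 Krt14-low cells, with highest cells of 153 and 980 CPM. Fibroblast genes did so in 4 cells of each class, and endothelial genes in 2 and 4. Of these 6 lists only 9 genes were measured in the comparison. The 4 measured sort antigens had none higher and 1 lower (−0.43).

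Compared directly with the 71 ablated basal cells, 2102 of 10767 genes (19.5%) were 2-fold or more higher in Krt14-high luminal cells and 1902 (17.7%) lower, around a median of 0.07. This comparison shares its Krt14-high cells with the one above, so values are given side by side only. The 4 simple keratins were all higher (median 4.94), as were 18 of 21 junction genes (2.64) and 10 of 13 hormone-sensing genes (2.70). The contractile list was lower in 14 of 15 genes (−3.33), the secreted and matrix list in 13 of 19 (−2.11) and the adhesion list in 12 of 19 (−1.11). The median of the basal keratins stood near 0 (−0.17), but its 5 measured members ran from −2.78 to 5.50. Of these, 2 were 2-fold or more higher and 1 was lower. Krt5 was 732 against 884 CPM and Krt17 3576 against 4019 CPM. Cell cycle genes were higher in 16 of 21 (1.87), but their median was −0.38 without cells of high gene number.

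**Figure D5:**
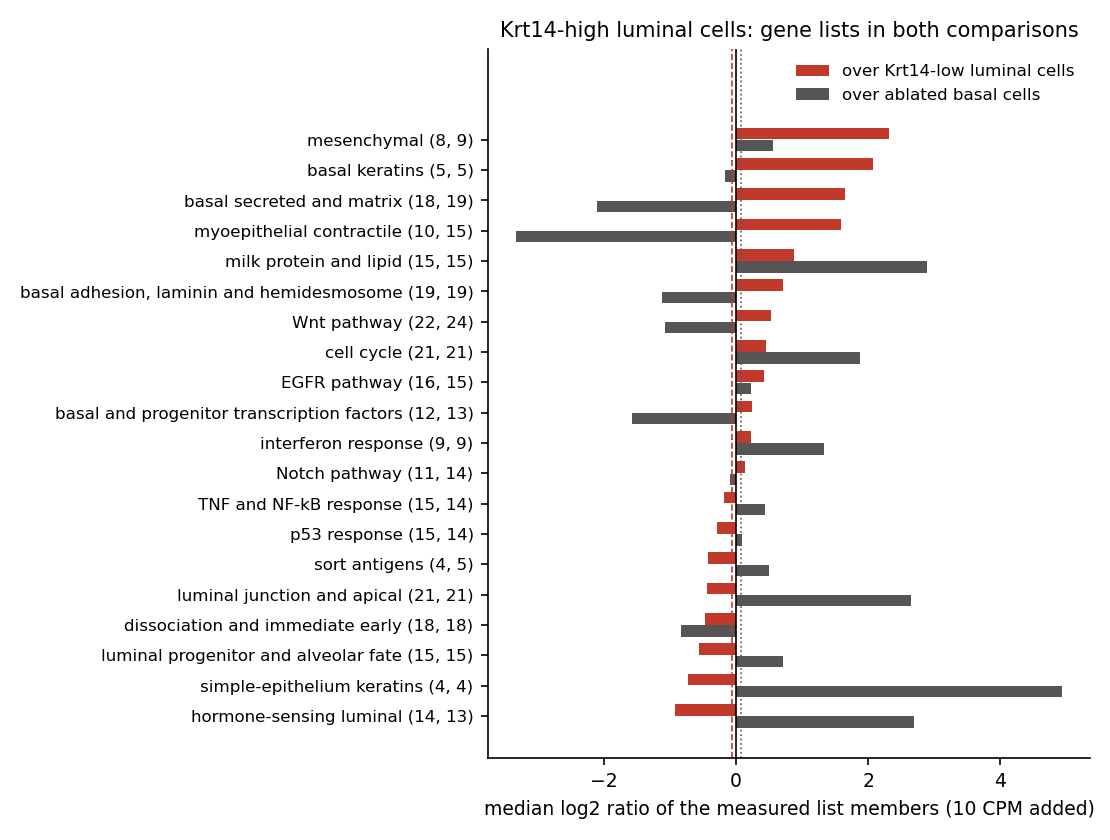
Median log2 ratio of each gene list for Krt14-high luminal cells over Krt14-low luminal cells and over ablated basal cells, with the number of measured genes of both comparisons in brackets and the medians of all genes as dashed and dotted lines. The contractile list is at 1.59 and −3.33 and the simple keratins are at −0.73 and 4.94, while the basal keratins are at 2.07 and −0.17.

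When the Krt14 limits were applied to hybrid cells, only 4 of 85 were Krt14-low against 63 Krt14-high. With 4 cells on one side, 4162 of 10137 genes (41.1%) were 2-fold or more higher and 1593 (15.7%) lower, and the median over all genes was 0.57, so a general shift is included in each ratio. Krt5 was 552 against 91.2 CPM (2.47) and Krt17 4046 against 682 CPM (2.55). In the 4 Krt14-low hybrid cells, 1 cell gave 75.7% of the Krt5 reads and 1 cell 94.8% of the Krt17 reads. Cited1, the gene with one of the largest ratios toward Krt14-low luminal cells, went the other way in hybrid cells, with 344 against 4.60 CPM (4.60). Trp63 was 58.9 against 135 CPM (−1.07). The difference between luminal and hybrid cells in these genes was not tested.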

How the data were processed

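The libraries are Smart-seq2 single cells and controls from 1 plate. The authors deposited 1 table of whole-number read counts per gene; per the submitters' processing notes, reads were handled with HTSeq 0.6.0, STAR 2.5.2b and cutadapt 1.13, on the build GRCm38, and Seurat is listed too. Their roles, settings and annotation version are not stated there. Smart-seq2 reads carry no molecular identifiers, so copies made by PCR are counted as reads, and CPM is not scaled to gene length, so levels are not compared between genes. Strand is not marked by this kind of library, and overlapping genes cannot be told apart.

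From these counts, wells were kept and classed as described in the report, reads were summed over the cells of a class, and 10 CPM were added before each log2 ratio. A gene counted as measured at 5 CPM over both classes together. Symbols for 49326 of 49585 genes came from GENCODE M21 (GRCm38), and promoters from RefSeq. The 92 spike-ins held 11 reads in all wells and were left out. Sums at 50 CPM or more have an exact 95% Poisson upper bound at most 4.78% above the value. Shares carry exact Clopper-Pearson intervals.

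The report names the 15 largest and 15 smallest ratios among genes with 50 CPM, detection in 25% of cells of the higher class and a share 20 points above the lower class, leaving out ribosomal, mitochondrial and unnamed genes, besides fixed marker genes and up to 4 members per gene list. Genes outside it were chosen after their values were seen. The members and gene lists were chosen with earlier results of these data known, and the comparison with ablated basal cells was added after seeing the data.

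Alternatives were other limits for reads, genes, mitochondrial share and Krt14, other scalings (median-of-ratios and edgeR TMM), medians or equal weights over cells, another added CPM, subtraction of negative control reads, parts of the plate, and leaving out cells. The gene number limit, used in place of a doublet caller, was the 90th percentile of kept wild-type cells, 3784 genes at 100000 reads. The log2 ratio on summed reads was tested on simulated cells with known fold changes, and the other steps were not. The simulated fold changes were put into genes at 50 CPM or more. None of these genes was confined to a few cells, so reads concentrated in 1 cell were not tested. Python 3.11.15, numpy 2.4.6, pandas 2.3.3, scipy 1.17.1, R 4.3.3 and edgeR 4.0.16 were used.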

Additional observations from a re-analysis of the deposited data

How the results depend on the processing

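No paired analysis was possible because the labels name no replicate or animal, and each gate is 1 sample. With the read, gene and mitochondrial limits, the other Krt14 limits, equal weights, both scalings, no abundance filter and negative control reads subtracted, and without the top cell of each gene or the Krt14-high cells under 1000 CPM of Krt18, the counts of genes 2-fold or more higher and lower in Krt14-high cells stayed within 1.5 times. Genes higher in Krt14-high cells numbered 686 by the median over cells, 1761 with 1 CPM added, 2769 without cells above the gene number limit (10 against 10 cells left), 2046 on plate lines I and J and 1730 on lines K to M. Genes lower numbered 515, 2165 and 2559 under the first 3 of these and 2198 on lines K to M. Like counts did not always hold the same genes. Of the 1148 higher and 1423 lower genes, the read, gene and mitochondrial limits kept at least 1139 and 1399. Equal weights kept 981 and 1169, and leaving out the top cell of each gene kept 700 and 893. Without cells above the gene number limit 685 and 697 were kept. On lines I and J 789 and 823 were kept, and on lines K to M 745 and 968. In hybrid cells, 1242 were higher and 1010 lower by the median over cells, 6422 and 248 without the top cell of each gene, and 2445 lower with median-of-ratios scaling. Against basal cells, 182 were lower by the median over cells and 3262 without cells above the gene number limit. The medians of the contractile, the junction, the Wnt, the EGFR and the TNF and NF-kB list moved by less than 1.5-fold throughout. Other list medians moved further or turned. By the median over cells they were 5.05 for basal keratins, 1.95 for adhesion, 2.90 for secreted and matrix genes, −2.18 for simple keratins, 0.28 for milk, −1.15 for cell cycle and −1.05 for sort antigens. With no abundance filter they were 1.04 for basal keratins and 1.44 for mesenchymal genes, which gave 4.20 with 1 CPM added, when secreted and matrix genes gave 2.59, and 1.69 without the top cell. Without cells above the gene number limit they were 1.36 for adhesion, 1.21 for basal transcription factors, 0.05 for simple keratins, 0.21 for milk, −1.25 for cell cycle, 0.76 for p53 and 0.12 for immediate early genes. On lines I and J they were 1.43 for basal keratins, 0.52 for progenitor, −0.16 for cell cycle and 3.34 for mesenchymal genes, and on lines K to M −1.94 for hormone-sensing, −0.14 for milk, −0.82 for interferon, −0.24 for Notch and 1.17 for cell cycle genes. Smaller turns were Notch −0.23 and interferon −0.065 with equal weights, interferon −0.10 without the top cell, and p53 0.098 with Krt14 limits of 500 and 100 CPM. Cell cycle genes gave −0.22 without Krt14-high cells under 1000 CPM of Krt18.

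Of 107 named genes past 2-fold, 77 kept their direction and 33 the 2-fold size by the median over cells, 94 and 77 without cells above the gene number limit, 100 and 82 on lines I and J, and 97 and 91 on lines K to M. Ratios that turned were, by the median over cells, Birc3 −0.11, Hp −0.18 and Lgr6 −0.047. Without the top cell they were Csn2 −0.094 and Rgs5 −0.0043, and without Krt14-high cells under 1000 CPM of Krt18 (21 left) Ccna2 −0.94 and Procr −0.42. Without cells above the gene number limit they were Atp2a3 0.87, Btg2 0.33, Calca −0.026, Ccna2 −0.76, Chil1 −0.60, Elf5 0.67, Fabp5 −0.92, Foxa1 0.34, Grb14 0.46, Hp −0.069, Krt15 1.42, Mcm5 −0.61 and Trp53inp1 1.58, and the cell cycle list against basal cells was −0.38. On lines I and J they were Ccna2 −0.50, Cldn8 1.00, Crabp1 0.12, Elf5 0.62, Irf7 0.11, Procr −1.03 and Rspo1 1.25. On lines K to M they were Acta2 −0.0020, Aldh1a3 0.74, Calca −0.012, Csn2 −0.010, Hey1 −0.48, Hp −1.94, Jag1 −0.35, Krt15 0.38 and Tph1 −0.96. Fewer cells remain in each of these settings except the median, and the cause was not tested further. Depth limits detection, since a gene under 5 reads at 100000 reads counts as not found.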

Other observations

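Among the 22 genes past 8-fold toward Krt14-low cells, 10 had at least 90% of the reads of the class in 1 cell, against 1 of 41 toward Krt14-high cells. In 9 of the 10 this was the same Krt14-low cell, which held, among others, 9087 CPM of Lrmp, 8123 CPM of Ngb, 5619 CPM of Gnb3, 2403 CPM of Avil and 1973 CPM of Trpm5, the taste-cell and tuft-cell ion channel. This cell was chosen after its values were seen. These genes are in the count of lower genes but not among the named ones, which need detection in 25% of cells. The same Krt14-low cell also held 64.6% of the Krt14-low reads of Atp2a3, which is among the named genes, with 2168 CPM.

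The uneven spread within Krt14-high cells was wide in luminal genes as well. The summed luminal list ran from 6130 through 19396 to 54896 CPM per cell, against 15754 through 32616 to 64027 CPM in Krt14-low cells and a median of 2234 CPM in ablated basal cells.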
